A study of Homo sapiens with 4 samples.

Results

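The expression of 10 genes that the tumour suppressor p53 switches on to halt the cell cycle, to repair and protect the cell and to limit its own activity was examined in irradiated pancreatic cancer cells. The genes were chosen by name, as CDKN1A, BTG2, GADD45A, PLK2, PLK3, MDM2, SESN1, SESN2, FDXR and GDF15, and all 10 were found among the 58174 rows of the deposited table that carry a gene identifier. SW1990 and PANC-1 are established human pancreatic cancer cell lines. Each line gave 1 library from cells that received no radiation (0 Gy) and 1 from cells exposed to X-rays at 10 Gy, so each of the 4 groups is a single library and the spread between cultures is unknown. How long after radiation the RNA was collected is not given in the sources used here.

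The unirradiated and irradiated libraries of SW1990 held 17939210 and 18388969 deposited counts, and those of PANC-1 held 23451153 and 20154644, loci without a gene name included. A gene with 3 counts, the floor used here, lies between 0.129 and 0.168 CPM (reads per library total). Within a line, the reads of the 2 libraries were compared gene by gene by a binomial test (exactTest of edgeR with the dispersion set to 0, TMM scaling, Benjamini-Hochberg adjustment over all genes tested). Genes with an FPKM (fragments scaled to transcript length and to the mapped total) of at least 1 in 1 or both libraries of the line were tested. Calls require a q-value under 0.001 with more than a 2-fold change, and a lower limit of 1.5-fold is given beside it. The test compares 2 libraries, not 2 conditions, and the 95% intervals of fold changes (exact Clopper-Pearson) cover counting error only. In bulk RNA, a change in the share of cells that express a gene and a change of RNA per cell cannot be told apart.

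In unstressed cells p53 is short-lived, because MDM2, an E3 ubiquitin ligase, marks it for degradation. DNA breaks activate the kinases ATM and CHEK2, p53 escapes MDM2 and binds to response elements of its target genes, among them MDM2 itself, which closes a feedback loop. CDKN1A encodes p21, the inhibitor of cyclin-dependent kinases through which p53 arrests cells in G1. The sestrins SESN1 and SESN2 restrain mTORC1, and GDF15 is a secreted stress cytokine of the TGF-beta superfamily. SESN2 and GDF15 are also known targets of ATF4, the transcription factor of the integrated stress response.

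The element that p53 binds is made of 2 decamers, each with the core CNNG, and was searched in the RefSeq promoter windows (build GRCh38.p14, 250 bases before to 50 after a start, 35116 windows of 27305 genes). Both core letters had to be intact in each decamer, up to 13 bases could lie between the decamers, and mismatches were counted over the remaining positions. The consensus is its own reverse complement, so both strands were covered. A window was found for 9 of the 10 genes, all but GADD45A. At up to 2 mismatches the element was found at MDM2 and FDXR, against 3.62% of all genes (2.93% of windows). At up to 3 mismatches PLK2, SESN1 and GDF15 were added, against 15.3% of all genes (12.8% of windows). These 5 best matches are shown because they are the letters closest to the p53 element in the windows of these genes, with capitals for the decamers and lower case for the bases between them.
MDM2, chr12:68808923-68808942, plus strand: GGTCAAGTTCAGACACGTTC
FDXR, chr17:74872996-74873025, minus strand: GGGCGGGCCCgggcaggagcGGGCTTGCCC
PLK2, chr5:58460196-58460218, minus strand: AGACTTGCTTcccGGCCACGCGC
SESN1, chr6:109009018-109009037, minus strand: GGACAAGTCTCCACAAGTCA
GDF15, chr19:18386186-18386205, plus strand: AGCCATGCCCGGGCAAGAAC
The match at MDM2 begins 94 bases before a downstream start and lies in an intron of the 4 GENCODE transcripts that span it. That at SESN1 begins 49 bases before an internal start and is intronic in 2 transcripts. The matches at FDXR, PLK2 and GDF15 overlap a 5′ exon with untranslated sequence in at least 1 transcript. A match is a description of letters and not a measured binding site, and for CDKN1A, BTG2, PLK3 and SESN2 no match at up to 3 mismatches says only that the letters are not in these windows.

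MDM4, the partner of MDM2 in holding p53 down, had 1794 reads without and 1041 reads with radiation in SW1990 cells, a fold change of -0.79 (-0.90 to -0.68) on the log2 scale that passed the 1.5-fold limit. In PANC-1 cells MDM4 had 1658 and 1545 reads and did not pass it (0.03, -0.07 to 0.13). From FPKM the fall of MDM4 in SW1990 was -0.52 on the log2 scale, short of the limit. TP73, of the same family of transcription factors, had 79 and 144 reads in PANC-1 cells and rose there past the 1.5-fold limit (log2 0.996), and past 2-fold by FPKM (1.37). In SW1990 cells its reads rose past that limit (535 and 831, log2 0.63) while its FPKM was lower after radiation (9.98 and 8.75, log2 -0.19), so no direction is given. TP63 had at most 2 reads in any library, and CDKN2A, whose ARF product inhibits MDM2, had 6 and 9 reads in SW1990 and 0 in both PANC-1 libraries. The kinases that signal the break, ATM, ATR, CHEK1 and CHEK2, passed neither limit in either line.

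On the FPKM scale, which allows levels of different genes to be compared, GDF15 was the highest of the 10 genes in all 4 libraries. It stood at 270.5 and 333.4 FPKM in unirradiated and irradiated SW1990 cells and at 250.7 and 122.6 FPKM in PANC-1 cells. MDM2 followed in both SW1990 libraries, and CDKN1A came next. Without radiation the order in PANC-1 cells was different, with GADD45A, SESN2 and PLK2 after GDF15 and above MDM2 and CDKN1A. The FPKM of the 10 genes summed to 452.7 and 654.2 in SW1990 cells and to 469.6 and 291.1 in PANC-1 cells, so the sum was higher after radiation in SW1990 and lower in PANC-1. BTG2 was the lowest of the 10 genes in all libraries except irradiated SW1990 cells, where SESN2 was lower.

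**Figure D1:**
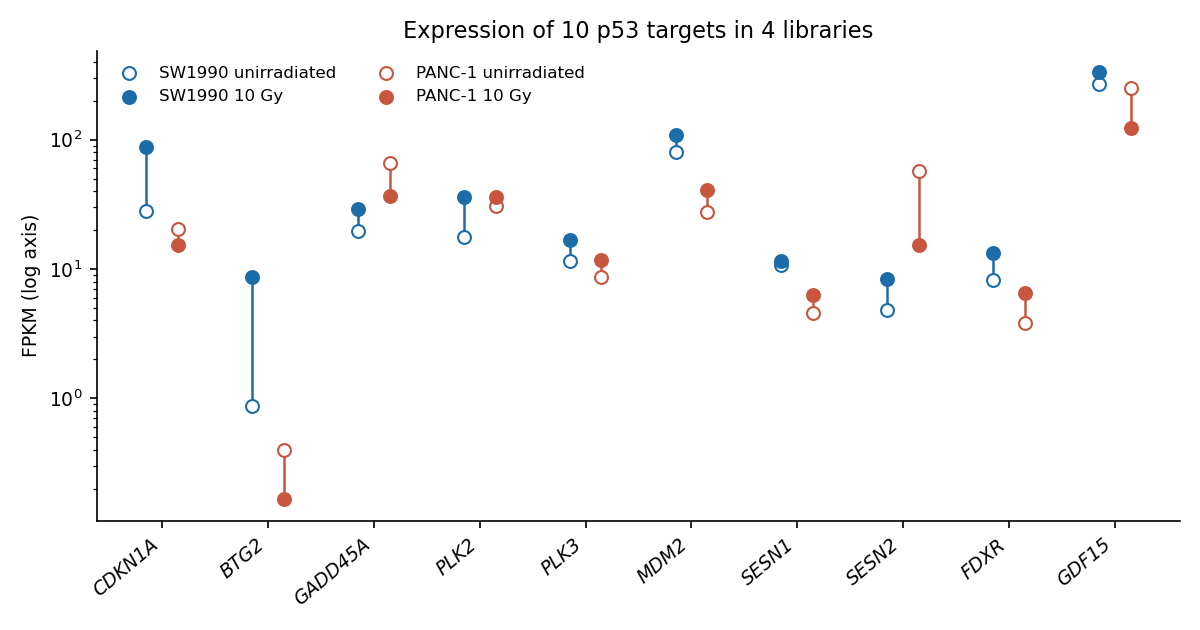
FPKM (log axis) of the 10 p53 targets, with an open circle for the unirradiated and a filled circle for the irradiated library of SW1990 (blue) and PANC-1 (red), 1 library per circle. Filled circles lie above open ones for all 10 genes in SW1990, and below them for CDKN1A, BTG2, GADD45A, SESN2 and GDF15 in PANC-1.

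In SW1990 cells, CDKN1A, PLK2 and BTG2 rose by more than 2-fold after 10 Gy, and SESN2 and, by counts but not by FPKM, MDM2, PLK3 and GADD45A rose by more than 1.5-fold. All 10 genes had a log2 fold change above 0, and the interval lay above 0 for 9 of them, all but SESN1. Over all 15731 genes tested, 7762 had a log2 fold change above 0 and 3957 an interval above 0. Called higher at 2-fold were 3 of the 10 genes, against 2.26% of the 15731 genes tested, and 0 were called lower, against 1.88%. Of the 3, BTG2 passed the FPKM filter through the irradiated library alone (0.878 FPKM without and 8.62 with radiation). At 1.5-fold 7 were called higher, against 5.21% of all genes, and 0 lower, against 4.05%. From FPKM in place of counts the 2-fold calls were the same 3 genes, but at 1.5-fold 5 were called higher, against 4.64% of all genes, and 0 lower, against 3.98%: MDM2, PLK3 and GADD45A lost that call and FDXR gained it. The median log2 fold change of the 10 genes was 0.72, and that of all genes tested was -0.01. The calls assume no spread between cultures. If a biological coefficient of variation of 0.2 is assumed, BTG2 alone of the 10 genes is called at 2-fold, and at 0.4 none is.

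In PANC-1 cells, SESN2 and GDF15 fell by more than 2-fold and GADD45A by more than 1.5-fold, while FDXR rose by more than 1.5-fold. BTG2 had an FPKM under 1 in both PANC-1 libraries and was not tested, which left 9 genes. Called at 2-fold were 0 of the 9 genes higher, against 2.37% of the 15159 genes tested, and 2 lower, against 2.32%. At 1.5-fold 1 was called higher, against 5.77% of all genes, and 3 were called lower, against 5.94%. From FPKM the same genes were called at both limits, against 6.83% of all genes higher and 4.55% lower at 1.5-fold. The median of the 9 log2 fold changes was 0.11, and that of all genes tested was -0.02. BTG2, lower there (log2 -1.28), is not in this median, while the SW1990 median holds it. Over all 10 genes, 5 log2 fold changes lay above 0 and 5 below 0 in PANC-1, against 7321 and 7838 of all genes tested. Over all genes the 2-fold calls were 360 higher and 352 lower, and they became 456 and 283 with library totals in place of TMM and 406 and 263 from FPKM. Under an assumed coefficient of variation of 0.2, SESN2 alone of these calls is kept at 2-fold, and at 0.4 none is.

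CDKN1A (chromosome 6, 36676460 to 36687339, GRCh38) had 1229 reads without and 4002 with radiation in SW1990 cells, and 1282 and 782 in PANC-1 cells. The levels of both unirradiated lines were close (27.9 and 20.2 FPKM), and after radiation SW1990 was high and PANC-1 low (88.5 and 15.4 FPKM). In SW1990 the gene rose 3.24-fold (log2 1.70, 1.60 to 1.79). Of the 15731 genes tested, 268 had a higher log2 fold change. In PANC-1 the log2 fold change was -0.58 (-0.71 to -0.45), 1.498-fold lower and just under the 1.5-fold limit.

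BTG2 (chromosome 1, 203305491 to 203309602), an antiproliferative protein that links mRNA deadenylation to growth control, had the highest fold change of the 10 genes. Its reads numbered 51 without and 525 with radiation in SW1990 cells and 32 and 12 in PANC-1 cells, and its FPKM 0.878, 8.62, 0.401 and 0.166. The gene was scarce in 3 libraries and stood out in irradiated SW1990 cells. It rose 10.2-fold in SW1990 (log2 3.36, 2.94 to 3.80), where 88 genes had a higher log2 fold change. In PANC-1 the interval was wide and below 0 (log2 -1.28, -2.38 to -0.29).

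GADD45A (chromosome 1, 67685061 to 67688338), a small stress protein that binds PCNA and the kinase MAP3K4, moved in opposite directions. It had 471 and 756 reads in SW1990 cells and 2130 and 1052 in PANC-1 cells. Before radiation it was higher in PANC-1 (65.5 FPKM) than in SW1990 cells (19.7 FPKM), and after radiation the levels were close (36.4 and 29.3 FPKM). The log2 fold change was 0.68 (0.51 to 0.85) in SW1990, a rise past 1.5-fold by counts but not by FPKM (0.57), and -0.89 (-0.995 to -0.78) in PANC-1, a 1.85-fold fall.

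The polo-like kinases PLK2 and PLK3, which unlike PLK1 are induced by stress and restrain division, were higher in irradiated SW1990 cells. PLK2 (chromosome 5, 58453982 to 58460260) had 419 and 1346 reads in SW1990 cells and 1649 and 1629 in PANC-1 cells. It rose 3.20-fold in SW1990 (log2 1.68, 1.52 to 1.84), to an FPKM (35.8) like that of both PANC-1 libraries (30.8 and 36.0). The size of this rise depended on the unit, since from the FPKM values of 17.7 and 35.8 it is 1.02 on the log2 scale. In PANC-1 the log2 fold change was 0.11 (0.01 to 0.21) and did not pass the test. PLK3 (chromosome 1, 44800225 to 44805990) had 309 and 519 reads in SW1990 cells and rose past the 1.5-fold limit (log2 0.74, 0.54 to 0.95), which its FPKM of 11.6 and 16.9 did not (0.55). In PANC-1 cells it had 370 and 395 reads (0.22, 0.02 to 0.43), with no call.

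MDM2 (chromosome 12, 68808176 to 68850686), the feedback inhibitor of p53, had 4522 and 7373 reads in SW1990 cells and 3070 and 3273 in PANC-1 cells. Its reads were highest in irradiated SW1990 cells. The log2 fold change was 0.70 (0.64 to 0.75) in SW1990, a 1.62-fold rise, and 0.22 (0.15 to 0.29) in PANC-1. The order of the lines turned with the unit. From the FPKM values, 80.7 and 108.6 in SW1990 and 27.4 and 40.7 in PANC-1, the log2 fold changes were 0.43 and 0.57. Counts and FPKM share the direction within each line, and the cause of their disagreement in size was not tested.

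The sestrins differed from each other. SESN1 (chromosome 6, 108986437 to 109094819) passed no limit, with 396 and 400 reads in SW1990 and 301 and 314 in PANC-1 cells. Its log2 fold changes were 0.01 (-0.20 to 0.21) and 0.19 (-0.04 to 0.42), and both intervals held 0. From FPKM, 10.8 and 11.5 in SW1990 and 4.58 and 6.31 in PANC-1, they were 0.08 and 0.46. SESN2 (chromosome 1, 28259527 to 28282491) had 365 and 642 reads in SW1990 cells and 5732 and 1313 in PANC-1 cells. It was 11.9 times as high in unirradiated PANC-1 (57.6 FPKM) as in unirradiated SW1990 cells (4.82 FPKM), and after radiation it stood at 15.2 and 8.31 FPKM. It rose 1.75-fold in SW1990 (log2 0.81, 0.62 to 0.997) and fell 3.99-fold in PANC-1 (log2 -2.00, -2.08 to -1.91), where 165 of 15159 genes had a lower log2 fold change.

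FDXR (chromosome 17, 74862497 to 74873031), the mitochondrial ferredoxin reductase and a well-known transcript marker of radiation exposure, was higher after radiation in both lines. It had 332 and 486 reads in SW1990 cells and 195 and 282 in PANC-1 cells. The log2 fold change was 0.54 (0.34 to 0.75) in SW1990, 1.46-fold and short of the limit that it passed by FPKM (0.70), and 0.66 (0.39 to 0.93) in PANC-1, 1.58-fold and past it. GDF15 (chromosome 19, 18374731 to 18389176) had 6849 and 8740 reads in SW1990 cells and 8563 and 3611 in PANC-1 cells. The irradiated PANC-1 library was the low one. In SW1990 the log2 fold change was 0.35 (0.30 to 0.39) and passed no fold limit, and in PANC-1 GDF15 fell 2.17-fold (log2 -1.12, -1.17 to -1.06). GFRAL, the receptor of GDF15, was at 0 reads in all 4 libraries.

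**Figure D2:**
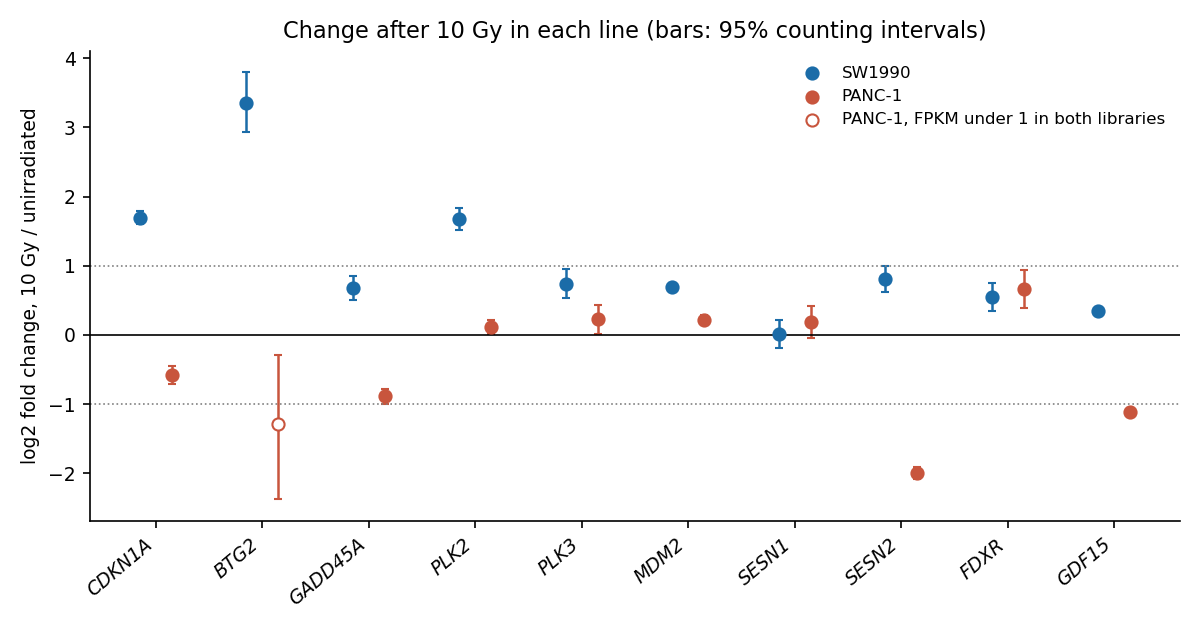
Log2 fold change of the counts, irradiated over unirradiated, in SW1990 (blue) and PANC-1 (red), with bars for 95% counting intervals and dotted lines at 2-fold. BTG2 (3.36), CDKN1A (1.70) and PLK2 (1.68) lie above 2-fold in SW1990, and SESN2 (-2.00) and GDF15 (-1.12) below it in PANC-1, where the open circle marks BTG2, which was not tested.

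The log2 fold change in SW1990 minus that in PANC-1 was computed for each gene, with an interval from the counts (95%, normal approximation). With 1 library per group the difference between lines cannot be tested. The interval lay above 0 for 8 of the 10 genes, and the share of all genes with such an interval is not given here. Counting intervals often exclude 0 at this depth. Within SW1990 the interval of the fold change lay above 0 for 3957 and below 0 for 3699 of the 15731 genes tested. The differences were 4.64 (3.60 to 5.69) for BTG2, 2.80 (2.60 to 3.01) for SESN2 and 2.28 (2.12 to 2.44) for CDKN1A. PLK2 and GADD45A followed at 1.56 each (0.79 from FPKM for PLK2) and GDF15 at 1.46 (1.39 to 1.53). PLK3 (0.52, 0.23 to 0.81) and MDM2 (0.48, 0.39 to 0.56) differed least of the 8, and from FPKM their differences were 0.10 and -0.14. For SESN1 (-0.18, -0.49 to 0.12) and FDXR (-0.12, -0.45 to 0.21) the interval held 0. The share of mitochondrial reads also moved differently in the lines, from 4.42% to 5.56% in SW1990 and from 3.30% to 2.99% in PANC-1, and its part in these differences was not tested.

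**Figure D3:**
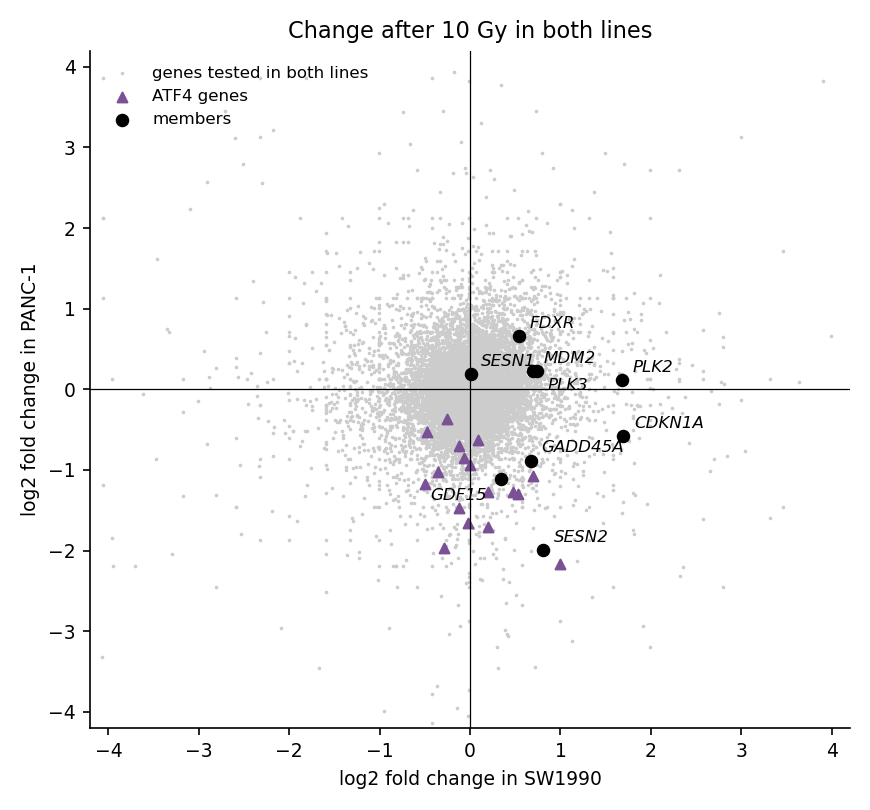
Log2 fold change after 10 Gy in PANC-1 against that in SW1990 for the 13228 genes tested in both lines (grey, 66 of them outside the axes), with the 9 members tested in both (black) and 17 genes of the ATF4 list (purple triangles). FDXR lies above 0.5 on both axes, CDKN1A, GADD45A, GDF15 and SESN2 lie right of 0 and below 0, and all triangles lie below 0 in PANC-1.

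Over both lines together, with line as a covariate (edgeR quasi-likelihood test, 18180 genes, 1 residual degree of freedom), no gene was called for radiation at an adjusted p below 0.05 (0%), and 833 genes (4.58%) had an unadjusted p below 0.05. Of the 10 genes, FDXR (log2 fold change 0.62) and MDM2 (0.48) were among the latter, each with an adjusted p of 0.936 in edgeR. DESeq2 called 39 genes and none of the 10. With 1 library per line and dose, the spread in these fits is how the response differs between the lines, not the spread between cultures. The p-values for radiation and for line both rest on it. Between the lines, over both treatments, 43.6% of genes were called, and of the 10 genes MDM2 and FDXR were called, both higher in SW1990, a share below that of all genes. MDM2 was 0.97 higher on the log2 scale (edgeR adjusted p = 0.0132) and FDXR 0.88 higher (edgeR adjusted p = 0.0282). In FPKM, both libraries of SW1990 lay above both of PANC-1 for each gene, 80.7 and 108.6 against 27.4 and 40.7 for MDM2 and 8.24 and 13.4 against 3.82 and 6.50 for FDXR. SESN2 was lower in SW1990 by a log2 fold change of -2.39 and missed the threshold (edgeR adjusted p = 0.0579). With DESeq2, SESN2 was called (adjusted p = 0.00398) and FDXR was not (adjusted p = 0.0829), and without a filter on low counts FDXR also lost its call (edgeR adjusted p = 0.0521).

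Other p53 targets were taken from 4 lists of 61 genes. In SW1990 cells 57 were tested and 47 had a log2 fold change above 0, against 7762 of 15731 over all genes. At 2-fold 4 were called higher (2.26% of all genes) and 0 lower (1.88%), at 1.5-fold 13 higher (5.21% of all genes) and 0 lower (4.05%), and the median was 0.34. In PANC-1 cells 50 were tested and 22 lay above 0, against 7321 of 15159 over all genes. There 0 were called higher (2.37% of all genes) and 1 lower (2.32%) at 2-fold, and the median was -0.08. At 1.5-fold 3 of 50 (6.0%) were called higher and 6 of 50 (12.0%) lower, against 5.77% and 5.94% of all genes, so the higher share is near that of all genes. From FPKM the PANC-1 calls at 2-fold were 1 higher, PIDD1, and 0 lower. At 1.5-fold from FPKM, TNFRSF10B, PMAIP1 and NINJ1 lost the lower call, and GTSE1 (0.67) and PLXNB2 (0.76) gained a higher one. The higher calls then outnumbered the lower ones, against 6.83% higher and 4.55% lower of all genes. The lists were not tested as sets.

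Of the other arrest and feedback targets, TP53INP1 (59 and 133 reads, log2 1.17) was called higher at 2-fold in SW1990. It passed the FPKM filter there through the irradiated library alone (0.470 and 1.05 FPKM), and was not tested in PANC-1 (119 and 95 reads). In PANC-1 cells E2F7, a repressor of E2F targets, fell at 1.5-fold (2994 and 1589 reads, log2 -0.78). CCNG1 (0.55 and -0.14), SFN (0.42 and -0.06) and PPM1D (0.17 and -0.25) passed no limit in either line by counts, and by FPKM CCNG1 passed 1.5-fold in SW1990 (0.70) and GTSE1 in PANC-1 (0.67). Among cell death targets, the decoy receptor TNFRSF10C (31 and 179 reads, log2 2.52) and BBC3, which encodes PUMA (106 and 239 reads, log2 1.17), rose at 2-fold in SW1990, and PHLDA3, PMAIP1, FAS and AEN at 1.5-fold, FAS at 2-fold by FPKM (1.195 against 0.69 by counts). BAX passed no limit in either line (0.35 and 0.20). In PANC-1 cells PIDD1 rose at 1.5-fold (0.90), while TNFRSF10B (-0.68) and PMAIP1 (-0.59) fell at 1.5-fold by counts. From FPKM both were also lower but short of that limit (-0.37 and -0.49).

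By counts the DNA repair targets held 1 call, DDB2, which recognises ultraviolet lesions and rose at 1.5-fold in SW1990 (432 and 813 reads, log2 0.91), and by FPKM POLH, a translesion polymerase, passed that limit too (0.65). In PANC-1 DDB2 had 778 and 687 reads and POLH 719 and 849, with no call, and 0 of 8 repair genes were called there. Among targets of metabolism and other functions, SPATA18, a mitochondrial quality control gene, rose at 2-fold in SW1990 (49 and 139 reads, log2 1.498) and was at 0 reads in PANC-1. From FPKM its rise was 0.92 and passed 1.5-fold only. ACER2, IER5 and SERTAD1 rose at 1.5-fold in SW1990, and ACER2 (0.84) and SERTAD1 (0.63) also in PANC-1. DRAM1, a regulator of autophagy, fell at 2-fold in PANC-1 (305 and 130 reads, log2 -1.10), and by FPKM at 1.5-fold only (-0.68).

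The relatives of the 10 genes by family were mostly without calls. In SW1990 12 of 14 were tested, with 1 higher and 1 lower at 1.5-fold, SESN3 (0.69) and MDM4, neither of them by FPKM (0.21 for SESN3), and a median of 0.16. Each is 8.33% of the relatives tested, near the 5.21% and 4.05% of all genes. In PANC-1 10 were tested, with TOB1 called higher at 2-fold (368 and 1063 reads, log2 1.66), BTG1 lower at 2-fold (1591 and 691 reads, log2 -1.07), BTG3 lower at 1.5-fold (-0.71) and a median of -0.22. That is 1 of 10 higher and 2 of 10 lower at 1.5-fold, against 5.77% and 5.94% of all genes. BTG1 passed 1.5-fold only by FPKM (-0.90). TOB1 and BTG1 are antiproliferative proteins of the BTG2 family. By counts the p21 relatives CDKN1B (-0.17 and -0.24) and CDKN1C (0.12 and 0.65) had no call, nor did PLK1 (-0.04 and 0.28), PLK4 (-0.32 and -0.20) and TOB2 (0.38 and -0.37). From FPKM PLK1 passed 1.5-fold in PANC-1 (0.59) and BTG1 in SW1990 (0.60). GADD45B had 219 and 232 reads in SW1990 and 649 and 404 in PANC-1 cells (0.08 and -0.55), with no call, and GADD45G (28 and 47 reads, 0.74) was tested in SW1990 alone. PLK5 and BTG4 were at 0 in all libraries.

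Genes whose proteins work with the 10 products, such as cyclins, their kinases, PCNA and the GATOR2 complex that sestrins bind, had no call by counts in SW1990 (17 of 19 tested). From FPKM FDX2 passed 1.5-fold there (-0.72) and CCNE2 in PANC-1 (0.98). In PANC-1 3 of 17 fell at 1.5-fold by counts (5.94% of all genes), namely CDK4 (3015 and 1653 reads, -0.74), a target of p21 family inhibitors, and the GATOR2 subunits MIOS (-0.79, and -0.37 with no call from FPKM) and SEC13 (-0.60). The 30 cell cycle genes that p21 represses through the DREAM complex had medians of 0.08 in SW1990 and 0.19 in PANC-1. Of these, FOXM1, a transcription factor of G2 and mitosis, was called in both lines. It rose in SW1990 (1596 and 3816 reads, log2 1.25, 1.17 to 1.34), the line in which CDKN1A rose, and fell in PANC-1 (2887 and 1266 reads, log2 -1.06, -1.16 to -0.96). From FPKM both changes kept their direction and passed 1.5-fold but not 2-fold (0.85 and -0.65). BIRC5, an inhibitor of apoptosis made in mitosis, rose at 1.5-fold in PANC-1 (0.74). By counts, the other 29 genes in SW1990 and the other 28 in PANC-1 passed neither limit. At 1.5-fold that is 3.33% of the list called higher in SW1990, against 5.21% of all genes. In PANC-1 it is 3.33% higher and 3.33% lower, against 5.77% and 5.94% of all genes. From FPKM BIRC5 in SW1990 (0.62) and CDC6 (0.68), CDK1 (0.62) and PLK1 in PANC-1 also passed 1.5-fold, and BIRC5 in PANC-1 passed 2-fold (1.17).

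The integrated stress response list moved with SESN2 and GDF15 in PANC-1 cells. All 19 of its genes had a lower level after radiation there, against 7838 of 15159 over all genes. Of the 19, 12 were called lower at 2-fold (2.32% of all genes) and 17 at 1.5-fold (5.94% of all genes), with a median of -1.17. From FPKM 9 were called at 2-fold, since ASNS, CEBPB and VLDLR lost that call. With an assumed coefficient of variation of 0.2, 3 are called at 2-fold, and at 0.4 none is. Examples are ATF3 (1325 and 269 reads, log2 -2.17), NUPR1 (1073 and 237, -2.05), TRIB3 (3897 and 907, -1.97) and DDIT4 (7523 and 2098, -1.71). ATF4 itself had 11187 and 6275 reads (-0.70). In SW1990 17 were tested, with 0 called at 2-fold, 2 higher at 1.5-fold, ATF3 (0.99) and CEBPB (0.70), and a median of -0.03. The FPKM of the list summed to 586.1 and 545.3 in SW1990 and to 1225 and 645.2 in PANC-1 cells, so the unirradiated PANC-1 library was the high one, as it was for SESN2 and GADD45A. ATF4 leads it in all libraries by FPKM (184.5, 174.0, 217.9 and 131.4). The list's part in the levels of SESN2, GDF15 and GADD45A was not tested. ATF3 is itself a p53 target. Without it, 11 of 18 genes were called lower at 2-fold in PANC-1.

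**Figure D4:**
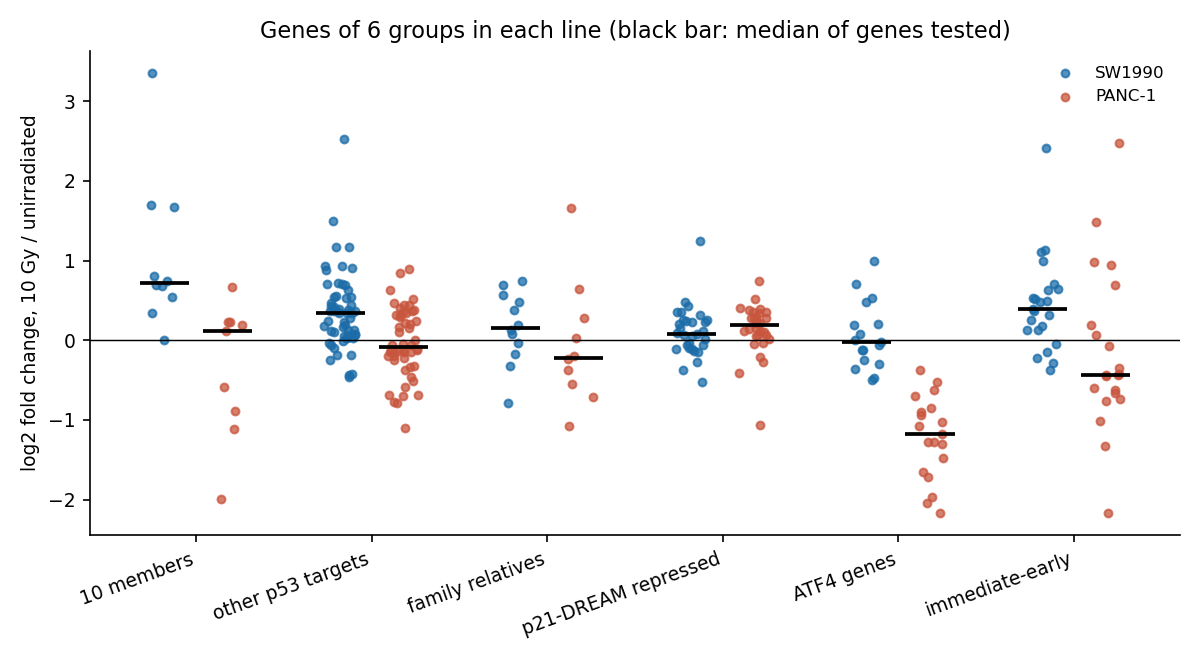
Log2 fold change after 10 Gy of every gene tested in 6 groups, in SW1990 (blue) and PANC-1 (red), with a black bar at the median. The members (0.72) and other p53 targets (0.34) have medians above 0 in SW1990, and the ATF4 genes have the lowest median, -1.17, in PANC-1.

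The genes with the profile most like that of CDKN1A over the 4 libraries were SENP3-EIF4A1, MRPL30, ADI1, ZNF672 and GPD1L, at Euclidean distances of 0.30, 0.36, 0.60, 0.61 and 0.62 in centred log2 CPM among 9991 genes. SENP3-EIF4A1 is a readthrough locus that shares exons with its neighbours. Its reads were 1303, 4424, 1153 and 674, high in irradiated SW1990 cells as for CDKN1A. Nearest to MDM2 were APOBEC3C, PIGQ, ACADSB, TTLL3 and TRIM16, at 0.10 to 0.15. A distance over 4 libraries in centred values describes a likeness of pattern over the libraries, not of level.

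Reads of overlapping genes could bear on 4 of the 10 loci, since the sources used here do not say whether counting used the strand. MDM2 overlaps CPM (carboxypeptidase M) on the opposite strand over 8490 bases, and CPM had between 22 and 69 reads per library, while MDM2 had at least 3070. Inside MDM2 lie also AC025423.1, with between 8 and 83 reads, AC025423.2, with at most 7, and AC025423.4, with 0. MIR3189 lies in GDF15 and had 81, 89, 23 and 25 reads, small beside the reads of GDF15, at least 3611. The partners of PLK3 and SESN1 had at most 6 reads. CDKN1A, BTG2, GADD45A, PLK2, SESN2 and FDXR overlapped no other gene.

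The libraries carried epithelial keratins in both lines, KRT8 with 38674 and 53301 reads in SW1990 and 28483 and 27779 in PANC-1 cells. KRT7 was far scarcer, with 99 and 102 reads in SW1990 and 145 and 97 in PANC-1 cells. EPCAM (7348, 7552, 108 and 113 reads) and CDH1 (9906, 14345, 59 and 65) were low in PANC-1. KRT19 rose at 1.5-fold in PANC-1 by counts and FPKM (log2 0.64 and 0.72), and CDH1 passed 1.5-fold in SW1990 by FPKM alone (0.77). Of 6 fibroblast markers, COL1A2 and DCN were at 0 in all libraries and LUM had at most 2 reads. COL1A1 had 103, 165, 965 and 1315 reads and was called higher in SW1990 at 1.5-fold by counts (log2 0.67) and at 2-fold by FPKM (1.03). COL3A1 had 0, 0, 80 and 77, and PDGFRB had 129 and 63 in SW1990 cells, a fall called at 2-fold by counts (log2 -1.04) and at 1.5-fold only by FPKM (-0.60), and 0 and 3 in PANC-1. The list summed to 2.96, 3.88, 9.32 and 11.8 FPKM. Of 7 immune and endothelial markers, CD3E was at 0 in all libraries and PTPRC, carried by all white blood cells, had at most 2 reads. CD14 had 39, 56, 26 and 52 reads, with no call, and was the most abundant of them in SW1990 (0.923 and 1.315 FPKM). CD68, of macrophages, was the most abundant in PANC-1 (967 and 583 reads, 31 and 37 in SW1990) and was called lower there at 1.5-fold by counts (-0.60) but not by FPKM (-0.43). The list summed to 1.92, 2.56, 19.3 and 15.1 FPKM. The part of these genes in the results was not tested.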

How the data were processed

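The authors filtered the reads and deposited, per gene and library, a read count without normalization and an FPKM value (scaled to transcript length and mapped fragments). According to the labels and submitters' processing notes, CASAVA 1.8, FastQC 0.11.2, Trimmomatic 0.36, HISAT2 2.0, StringTie 1.3.3b and DESeq2 1.12.4 were used with GRCh38. The counting tool, its use of strand and the annotation release are not given in the sources used here. The labels describe removal of ribosomal RNA, and an mRNA kit is named. Of 59263 rows, 1089 name no gene (0.453% to 0.635% of counts) and were left out. Gene names that had been turned into dates, 27 in all, were restored from identifiers with GENCODE 29, which gave the same coordinates for 96.9% of the 57836 identifiers found.

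Counts were analysed with edgeR 4.0.16 (R 4.3.3): a read test within each line, and a quasi-likelihood fit over 4 libraries on line and treatment, with DESeq2 1.42.0 as an alternative. A value of 0 was set to 0.01 for the call. Values adjusted below 0 by the read test were set to 0. The scripts were tested on simulated data. Figures were drawn with matplotlib 3.10.9. TMM against other scalings, filters, fold limits, an assumed spread of replicates and FPKM were varied. The members, the 13 other lists and the tests were chosen with earlier results of these data known. Named are all members, from each list up to 3 genes with the largest change in each line with at least 50 reads, MDM4, the family relatives tested, and the 5 genes nearest to CDKN1A and to MDM2 among those with at least 100 reads in every library. CCNG1, SFN, PPM1D, BAX, PMAIP1, FAS, AEN, SERTAD1, PLXNB2, ATF4, DDIT4, ATM, ATR, CHEK2, TP63, CDKN2A, GFRAL, PLK5, BTG4, JUN, DUSP5, EPCAM, PTPRC, ASNS, VLDLR, CCNE2, CDC6, GTSE1, LUM, COL3A1 and the marker genes at 0 are named beyond that rule, after their values were seen. Some genes that the rule names are not reported here.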

Additional observations from a re-analysis of the deposited data

Results flagged for a closer look

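For 5 of the 10 genes and for FOXM1, the counts after radiation were higher in SW1990 and lower in PANC-1 cells, with counting intervals on opposite sides of 0. Over all genes tested, the interval lay above 0 for 3957 of 15731 in SW1990 and below 0 for 4618 of 15159 in PANC-1. The share of all genes with both is not given here. With 1 library per line and dose, the difference between the lines was not tested. The log2 fold change in SW1990 minus that in PANC-1 was 4.64 for BTG2, 2.80 for SESN2, 2.28 for CDKN1A, 1.56 for GADD45A and 1.46 for GDF15. For BTG2 the PANC-1 value rests on 32 and 12 reads. Outside the 10, 169 genes of the 13 other lists or nearest to CDKN1A or MDM2 were tested in both lines. Of these, 38 had intervals above 0 in SW1990 and below 0 in PANC-1, and 7 the reverse. The lists were chosen with earlier results known and the nearest genes for their profile, so they are not a background. Among the named genes the difference was 3.16 for ATF3, 3.08 for MYC, 2.42 for MRPL30 and 2.40 for SENP3-EIF4A1, all above that of FOXM1. By counts ADI1 differed by 2.08 and was also called at 2-fold in both lines in opposite directions. From FPKM the fall of ADI1 in PANC-1 passed 1.5-fold only (-0.93). MRPL30, SENP3-EIF4A1 and ADI1 were named for a profile like that of CDKN1A, so large differences were built into that choice. FOXM1, a gene that p21 represses through DREAM, differed by 2.31 and was called at 2-fold in both lines, in opposite directions, by counts. From FPKM its difference was 1.49 and neither line passed 2-fold.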

How the results depend on the processing

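The labels give no replicate numbers, so no pairing by number could be made. The fit over both lines, with line as a covariate, pairs the 2 libraries of a line, and it called 0 genes for radiation with and without that covariate. With 1 library per line and dose, no library could be left out. Genes called in SW1990 numbered 650, and 1456 at a fold limit of 1.5, 99 at an assumed coefficient of variation of 0.2 and 15 at 0.4. The members called there numbered 3, and 7, 1 and 0 under these settings. In PANC-1 712 genes were called, and 1776, 103 and 10, with 2 members, and 4, 1 and 0. The PANC-1 calls were 360 higher and 352 lower, and 456 and 283 with library totals. DESeq2 called 39 genes for radiation over both lines, against 0. Between the lines, 2 members and 43.6% of all genes were called, 1 and 20.2% without a filter on low counts, and 4 and 46.2% without treatment as a covariate, when MDM2, BTG2, GADD45A and SESN2 were called and FDXR was not. The difference between the lines was 2.06 for CDKN1A, 0.79 for PLK2, 0.10 for PLK3 and 1.33 for GDF15 from FPKM. With library totals it was 1.34 for GDF15 and 0.36 for MDM2. It reversed to -0.14 for MDM2 from FPKM, and the log2 fold change of SESN1 in SW1990 to -0.022 with library totals. From FPKM TP73 in SW1990 reversed to -0.19. It was 1 of 86 calls of genes outside the 10, from the other lists or nearest to CDKN1A or MDM2. Another 25 of these calls lost their limit, while 16 values gained a call at 1.5-fold and 5 moved up from 1.5-fold to 2-fold. The comparison at 1.5-fold from FPKM was chosen after seeing the data. The causes were not tested. Of the 10 members' fold changes in the lines, 137 values under alternatives kept direction and call, 6 gained a call, 8 lost it and 1 reversed. The time after radiation, the spread between cultures and the counting method limit all of these values.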

Other observations

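Immediate-early genes, which answer growth signals and stress within minutes, had higher and lower members. In SW1990 cells 23 of 26 were tested, with 3 called higher at 2-fold (2.26% of all genes), 7 higher at 1.5-fold (5.21%), 0 lower (4.05%) and a median log2 fold change of 0.39. The 3 were MYC (94 and 505 reads, log2 2.42), IER2 (564 and 1247, 1.14) and FOSL1 (337 and 730, 1.11). From FPKM IER2 passed 1.5-fold only (0.93). In PANC-1 cells 21 were tested, with 2 called higher and 3 lower at 2-fold (2.37% and 2.32% of all genes), 4 and 7 at 1.5-fold (5.77% and 5.94%), and a median of -0.43. EGR1 (59 and 299 reads, log2 2.47) and FOSB (43 and 110, 1.49) rose there, and ATF3, JUN (9220 and 3360, -1.33) and DUSP5 (3337 and 1504, -1.02) fell, DUSP5 at 1.5-fold only by FPKM (-0.94). These lists were not tested as sets, and the difference between the lines was not tested.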
